A study of Mus musculus with 7 samples.

Results

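The genes of mitochondrial ribosomal proteins were described here in splenic mouse CD8+ T cells that had received leukemic or control extracellular vesicles. Members were all genes with an Mrps or Mrpl symbol followed by a number and at most one letter, without pseudogenes, whose mean was at least 5 counts over the 7 libraries. Of 78 genes with such a symbol, 77 were members, 29 Mrps genes and 48 Mrpl genes, among 55367 genes in the table and 12623 genes that were tested. The 1 gene left out was Mrpl53, listed at 0 counts in all 7 libraries. Its last 300 bases are shared in the annotation with Gm42688 on the same strand, which was also listed at 0. The members nearest to the minimum on the inside were Mrps18b, with a mean of 14 counts, and Mrps36, with a mean of 19.1 counts, and the next was Mrpl23 with 38.9 counts. All members are nuclear genes.

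LME-sEVs are small extracellular vesicles purified from the microenvironment of leukemic spleens of Eμ-TCL1 mice, which carry the TCL1 oncogene in B cells and develop a disease like chronic lymphocytic leukemia. HCME-sEVs are the counterpart from control spleens. CD8+ T cells of Foxp3 YFP/cre mice were sorted from spleens and treated for 48 hours with sEVs at 100 μg/ml, giving 3 libraries with LME-sEVs and 4 libraries with HCME-sEVs. The groups and the dose are those of the labels. A figure legend gives the group sizes the other way round, and the methods describe amounts set by what each kind of spleen holds, so the amounts of LME-sEVs and HCME-sEVs may not have been equal. The direction of every comparison rests on the labels. According to the methods, CD8+ T cells in culture were stimulated through CD3 and CD28 with added IL2. For cells used for microarrays, sorted from Foxp3 YFP/cre spleens, the methods list IL2 without CD3 or CD28. The methods do not state which of these cultures the libraries here had. No source used here states whether the libraries came from separate animals, so p-values measure the spread between these libraries, which may be technical. Mice were young adults unless the methods stated otherwise, and cells without sEVs were not analysed here.

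Mitochondria translate the few proteins encoded in their own genome on a dedicated ribosome, which makes core subunits of the respiratory chain and of ATP synthase. Its rRNAs come from mitochondrial DNA, whereas all its proteins are encoded in the nucleus, made in the cytosol and imported. The small subunit (mostly Mrps genes) binds and decodes the mRNA, and the large subunit (mostly Mrpl genes) forms the peptide bond and the exit tunnel at the inner membrane. Some proteins have bacterial homologues and others are found in mitochondria alone. T cells expand their mitochondria after activation, and mitochondrial translation is known to be needed for the full function of effector CD8+ T cells.

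Nuclear genes of mitochondrial proteins are known for short GC-rich promoters that hold sites for ETS factors such as GABPA, for NRF1 and for YY1. RefSeq windows on GRCm38.p6, from 250 bases before to 50 bases after the start, were matched by symbol to 68 of the 77 members. The letters searched on both strands were CCGGAAG for ETS factors, GCGCATGCG for NRF1, AAGATGGCG for YY1 and the E-box CACGTG, which MYC and other factors bind. The following stretches, from 250 bases before to 30 bases after the start, show what such matches look like in 4 members whose values are given below, with the matches in capitals. Mrps18a lies at chr17:46110754-46111033 on the plus strand, Mrps26 at chr2:130563507-130563786 on the plus strand, Mrpl18 at chr17:12916062-12916341 on the minus strand and Mrpl22 at chr11:58171414-58171693 on the plus strand.
Mrps18a: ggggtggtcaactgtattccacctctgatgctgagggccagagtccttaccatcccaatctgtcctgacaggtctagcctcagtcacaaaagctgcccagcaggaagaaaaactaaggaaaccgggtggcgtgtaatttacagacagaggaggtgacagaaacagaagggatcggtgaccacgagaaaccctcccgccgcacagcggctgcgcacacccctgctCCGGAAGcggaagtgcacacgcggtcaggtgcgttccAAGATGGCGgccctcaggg
Mrps26: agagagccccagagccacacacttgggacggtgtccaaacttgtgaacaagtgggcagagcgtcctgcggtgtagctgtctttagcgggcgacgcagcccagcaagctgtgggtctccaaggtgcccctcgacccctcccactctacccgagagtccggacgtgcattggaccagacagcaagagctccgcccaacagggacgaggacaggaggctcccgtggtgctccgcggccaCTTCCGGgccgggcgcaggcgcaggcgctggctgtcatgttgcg
Mrpl18: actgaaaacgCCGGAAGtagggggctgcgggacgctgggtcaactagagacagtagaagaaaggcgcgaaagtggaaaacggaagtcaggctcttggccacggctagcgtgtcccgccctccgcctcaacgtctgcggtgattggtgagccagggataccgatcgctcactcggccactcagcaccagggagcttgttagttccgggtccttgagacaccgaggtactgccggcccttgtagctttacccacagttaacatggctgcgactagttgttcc
Mrpl22: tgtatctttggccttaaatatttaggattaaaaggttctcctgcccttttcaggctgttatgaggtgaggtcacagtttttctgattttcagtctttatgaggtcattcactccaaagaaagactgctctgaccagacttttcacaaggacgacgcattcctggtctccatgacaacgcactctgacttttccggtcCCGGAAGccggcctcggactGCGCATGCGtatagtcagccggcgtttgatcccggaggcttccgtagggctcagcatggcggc
In Mrps18a the ETS letters began 26 bases before the start and the YY1 letters 11 bases after it. Mrps26 held the ETS letters on the other strand, 14 bases before the start. The only match of Mrpl18 was the ETS letters 240 bases before the start. Mrpl22 held the ETS letters 53 bases and the NRF1 letters 33 bases before the start.

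A gene was counted if any of its windows held the letters. The ETS letters were in 25 of 68 members (36.8%), against 21.4% of the 9247 tested genes with a window and 9.93% of all 27025 genes with a window. The NRF1 letters were in 7 members (10.3%, against 4.30% of tested genes), and the YY1 letters were in 8 members (11.8%, against 3.83%). The E-box was in 5 members (7.35%), below its share of 11.8% of tested genes. The ETS letters also stood in 41.3% of the 63 cytosolic ribosomal protein genes with a window. A match of letters is a description of the window and not a bound site.

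Depth was 3689831 to 5030522 counts per library, so a floor of 3 counts was 0.596 to 0.813 CPM, the counts of a gene scaled to a common library size. TMM scaling factors, which correct for differences in composition between libraries, lay between 0.966 and 1.03. The CD8 T-cell markers were present in every library, with a summed level of 2222 to 2419 CPM with HCME-sEVs and 2491 to 2802 CPM with LME-sEVs, and 2 of the 8 (Cd3e and Cd3g) were called higher with LME-sEVs. Of the markers of other cells, the 2 genes of CD4 T cells and Treg summed to at most 0.580 CPM, the 5 of B cells to 3.46 to 7.58 CPM and the 2 of NK cells to at most 1.92 CPM in any library. The 6 myeloid genes summed to 0.532 to 2.64 CPM with HCME-sEVs and 3.58 to 5.36 CPM with LME-sEVs. Those of basophils and mast cells (4 genes) summed to 4.80 to 30.8 and 21.6 to 32.5 CPM, and 2 of them were called higher. The 5 erythroid and platelet genes summed to 63.2 to 164 and 138 to 182 CPM, and 3 of them were called higher. No marker was at 0 in all libraries. The part of these differences in the results on the members was not tested. In bulk RNA, fewer cells of a type and less RNA per cell cannot be told apart.

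Within the HCME-sEV group the libraries were not alike for mitochondrial transcripts. The share of counts from the mitochondrial genome was 7.67%, 7.43%, 7.03% and 6.49% in HCME-sEV libraries 1 to 4, and 6.55%, 6.49% and 6.44% in LME-sEV libraries 1 to 3. Several protein-coding mitochondrial genes, named below, were listed without counts in every library, so this share leaves them out. Small noncoding RNAs took 0.155% to 0.213% of counts with HCME-sEVs and 0.112% to 0.120% with LME-sEVs. Their part in the results was not tested. Results on the members are therefore also given without single libraries.

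Mitochondrial ribosomal protein genes were on balance lower with LME-sEVs than with HCME-sEVs, by a small amount. In the 77 members, 63 had a log2 fold change below 0 and the median log2 fold change was -0.15, against 0.01 over all tested genes, of which 48.5% were below 0. The members' levels summed to 7005, 6544, 6059 and 6109 CPM with HCME-sEVs and to 5765, 5809 and 5532 CPM with LME-sEVs. All 3 LME-sEV sums lay below all 4 HCME-sEV sums, with means of 5702 ± 149 (SD, n = 3) and 6429 ± 441 CPM (SD, n = 4), a difference of -11.3%. Because the sums are led by the most abundant members, counts of genes are given beside them.

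With edgeR (quasi-likelihood F-test, p-values adjusted by Benjamini-Hochberg across the 12623 tested genes), 8 of 77 members (10.4%) were lower with LME-sEVs at a false discovery rate (FDR) under 0.05, where 5.21% of all tested genes were. No member was called higher, where 3.75% of tested genes were. With DESeq2 and limma-voom 0 members were called higher as well, against 2.54% and 3.66% of tested genes. A DEG had an FDR under 0.05 and a log2 fold change beyond 1 in either direction, and 0 members were DEG, against 1.28% of tested genes. At an unadjusted p under 0.05, 24 of the 77 members were lower and 0 were higher, where 12.3% and 10.4% of tested genes were. In 16 members (20.8%) every LME-sEV library lay below every HCME-sEV library, as in 10.8% of tested genes. The opposite, every LME-sEV library above, occurred in 0 members and in 9.49% of tested genes. Among the 9688 tested genes between the lowest and the highest mean level of the members, 3.37 to 267 CPM, 5.64% were called lower and the median log2 fold change was 0.00. This range is set by the extremes of the members, whose median level was 74.3 CPM, so it does not match genes to members by level.

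**Figure D1:**
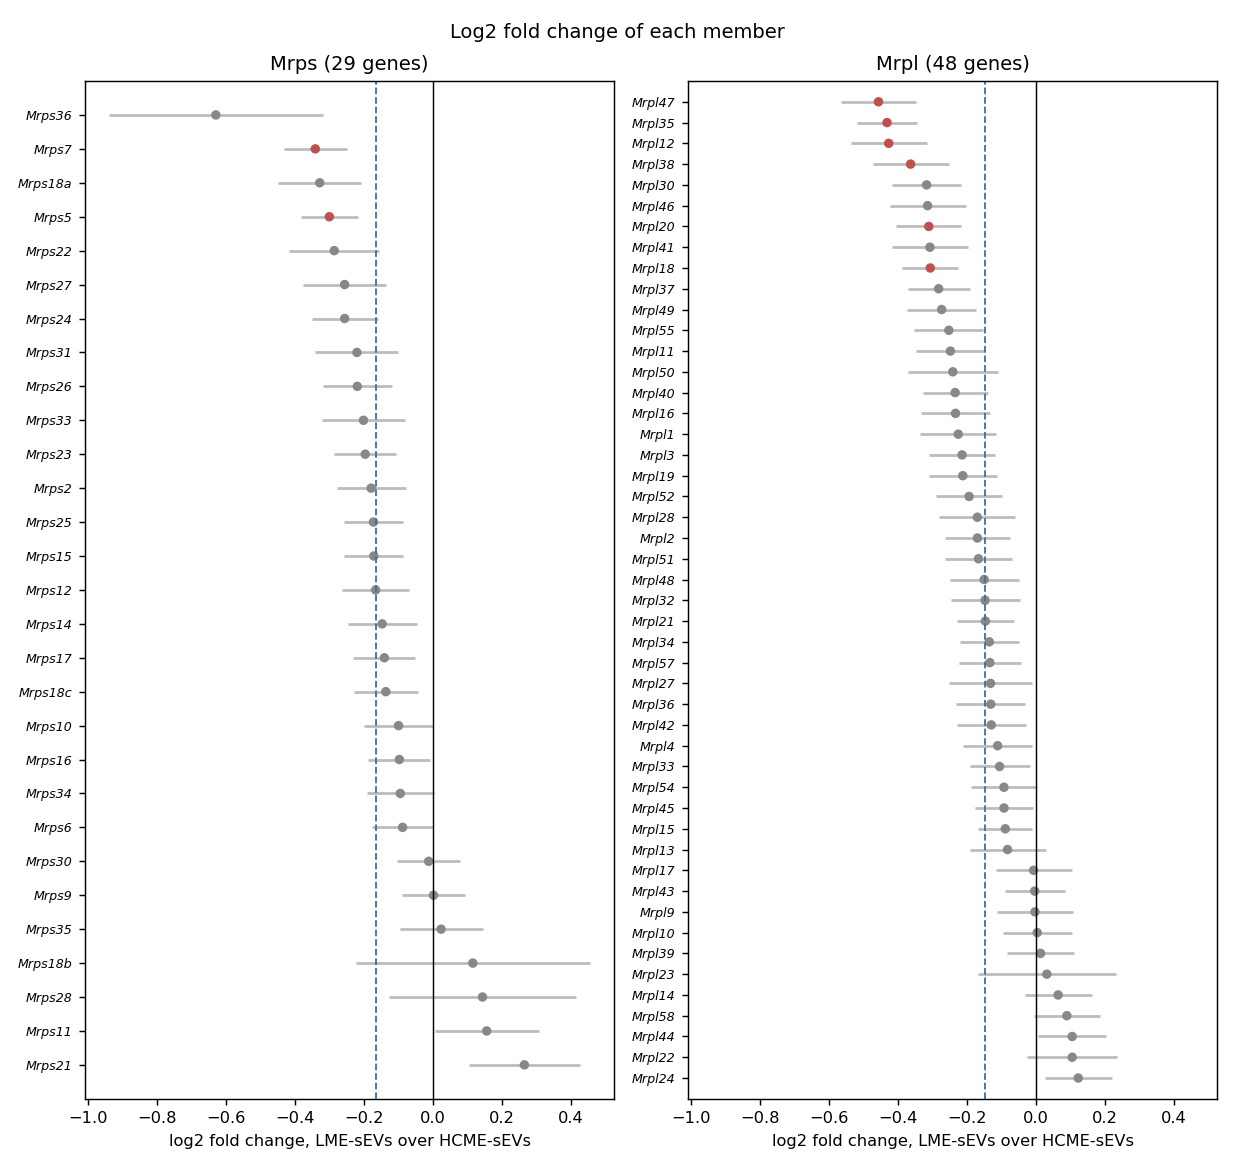
Log2 fold change of LME-sEVs over HCME-sEVs for each of the 29 Mrps genes (left) and 48 Mrpl genes (right), ordered by value. Points are estimates by edgeR and bars are 1 SE, red points have an FDR under 0.05, and dashed lines mark the medians of -0.17 (Mrps) and -0.15 (Mrpl), with 23 and 40 genes to the left of 0.

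The distribution of all log2 fold changes showed the members shifted to the left. Their log2 fold changes ran from -0.63 (Mrps36, with 8 to 26 counts per library) to 0.27 (Mrps21). The tested genes ran from -6.56 to 3.92, and the 9688 within the members' level range from -2.10 to 2.78. A range widens with the number of genes, so these ranges are not like for like. The shift was spread over many members with small differences, and most of these did not pass the test alone. A simulation with the same library sizes found 25.5% of 200 genes changed by 0.5 on the log2 scale and 90% of 200 genes changed by 1.5. Its changed genes were drawn from all tested genes, down to a mean of 5 counts, with a fixed dispersion. Members had means of at least 14 counts, so these shares do not give the chance of calling a member with a small difference.

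**Figure D2:**
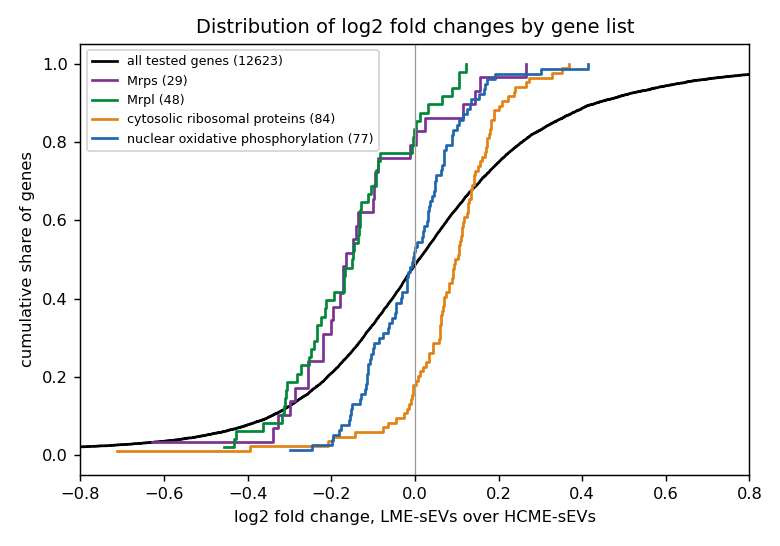
Cumulative share of genes (y axis) by log2 fold change of LME-sEVs over HCME-sEVs (x axis, shown from -0.8 to 0.8) for all tested genes, Mrps, Mrpl, cytosolic ribosomal protein genes and nuclear genes of oxidative phosphorylation. The Mrps and Mrpl lines lie to the left with medians of -0.17 and -0.15, the oxidative phosphorylation line crosses its middle at -0.01 and the cytosolic line at 0.10.

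The large-subunit genes held 6 of the 8 called members. Among the 48 Mrpl genes, 40 were below 0, the median log2 fold change was -0.15 and 6 (12.5%) were called lower, against 5.21% of all tested genes. Their levels summed to 4789, 4475, 4092 and 4168 CPM with HCME-sEVs and 3899, 3921 and 3755 CPM with LME-sEVs, a difference of -11.9%. In 11 Mrpl genes (22.9%) the groups did not overlap, all with LME-sEVs lower, as in 10.8% of tested genes. At an unadjusted p under 0.05, 17 of the 48 were lower, where 12.3% of tested genes were.

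Mrpl35, a large-subunit protein with a bacterial homologue, had the smallest p of all members. The gene (chromosome 6, 71812997 to 71826969, minus strand, GRCm38) measured 220, 203, 179 and 179 CPM with HCME-sEVs and 142, 150 and 142 CPM with LME-sEVs. All LME-sEV libraries were below all HCME-sEV libraries, and HCME-sEV libraries 1 and 2 were the highest. It fell by 0.43 on the log2 scale (SE 0.087, FDR = 0.0040), and it was called under all 17 alternative settings.

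Mrpl47, which sits beside the opening of the exit tunnel, had the largest decrease in the large subunit. Its levels were 97.3, 84.1, 86.4 and 68.7 CPM with HCME-sEVs and 62.2, 59.1 and 62.4 CPM with LME-sEVs. The groups did not overlap, although the HCME-sEV libraries spread widely and library 4 came close to the LME-sEV group. The log2 fold change was -0.46 (SE 0.11, FDR = 0.010), called under 16 of 17 settings.

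Mrpl12 forms the flexible stalk that recruits translation factors, and its protein also binds the mitochondrial RNA polymerase. It was measured at 300, 237, 199 and 229 CPM with HCME-sEVs and at 190, 178 and 172 CPM with LME-sEVs. Library 1 of HCME-sEVs was by far the highest, and library 3 was only slightly above the LME-sEV group. It fell by 0.43 on the log2 scale (SE 0.11, FDR = 0.014) and was called under 15 of 17 settings.

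Mrpl18, a protein of the central protuberance, was the most abundant of all members, with 313, 289, 258 and 303 CPM with HCME-sEVs and 247, 228 and 231 CPM with LME-sEVs. No library of one group reached into the other. Mrpl18 fell by 0.31 on the log2 scale (SE 0.081, FDR = 0.021) and was called under 13 of 17 settings. Its 3′ end overlaps Tcp1, a chaperonin gene on the opposite strand, by 101 bases, and Tcp1 had a log2 fold change of -0.07 (SE 0.081, FDR = 0.67). Whether the counting used the strand is not given in the sources used here.

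Mrpl20, whose bacterial homologue acts early in large-subunit assembly, was called although its groups overlapped. Levels were 229, 204, 203 and 166 CPM with HCME-sEVs and 167, 153 and 165 CPM with LME-sEVs, so that the lowest HCME-sEV library lay within the LME-sEV range. The log2 fold change was -0.31 (SE 0.094, FDR = 0.043), called under 7 of 17 settings.

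Mrpl38 is specific to mitochondria and lies in the central protuberance. It measured 52.4, 43.4, 41.7 and 41.8 CPM with HCME-sEVs and 36.7, 34.1 and 34.0 CPM with LME-sEVs. HCME-sEV library 1 stood apart from the other 3, which were close to each other and above all LME-sEV libraries. The log2 fold change was -0.36 (SE 0.11, FDR = 0.047), called under 5 of 17 settings. Without HCME-sEV library 1 it was -0.28 with an FDR of 0.14.

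The highest log2 fold changes of the large subunit belonged to Mrpl24 and Mrpl22. Mrpl24 had 80.9, 64.9, 69.7 and 67.8 CPM with HCME-sEVs and 79.1, 81.5 and 71.1 CPM with LME-sEVs, with a log2 fold change of 0.12 (95% interval -0.08 to 0.33). Its last 300 bases lie within Rrnad1 on the opposite strand. Mrpl22 had 31.0, 28.0, 24.7 and 24.4 CPM with HCME-sEVs and 28.2, 27.3 and 31.5 CPM with LME-sEVs, with a log2 fold change of 0.10 (95% interval -0.16 to 0.37). The groups overlapped in both genes and neither was called.

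**Figure D3:**
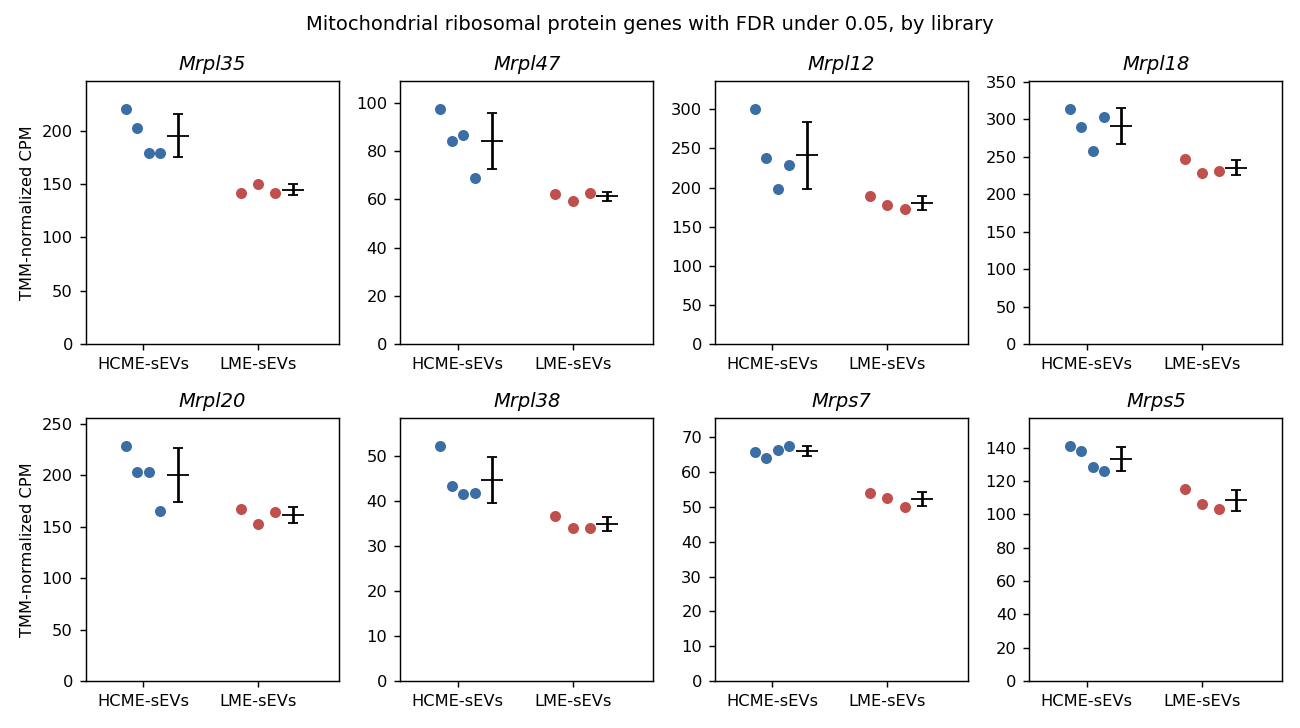
TMM-normalized CPM (y axis, from 0) of the 8 members with an FDR under 0.05 in each library, with HCME-sEVs in blue (4 libraries) and LME-sEVs in red (3 libraries). Black marks are the mean and SD of each group, and the groups are apart in 7 of the 8 genes, whereas in Mrpl20 the lowest HCME-sEV library (166 CPM) lies within the LME-sEV values.

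Small-subunit genes had a similar median and fewer calls. Of the 29 Mrps genes, 23 were below 0, with a median log2 fold change of -0.17, and 2 (6.90%) were called lower, a share near the 5.21% of all tested genes. Their sum was 2216, 2070, 1967 and 1941 CPM with HCME-sEVs and 1866, 1888 and 1777 CPM with LME-sEVs, a difference of -9.98%. In 5 Mrps genes (17.2%) the groups did not overlap and LME-sEVs were lower, as in 10.8% of tested genes. At an unadjusted p under 0.05, 7 of the 29 were lower, where 12.3% of tested genes were. The difference between the 2 subunits was not tested.

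Mrps7, a protein of the head of the small subunit whose bacterial homologue binds the rRNA early in assembly, had the smallest p of the Mrps genes. Its levels were 65.8, 64.2, 66.5 and 67.5 CPM with HCME-sEVs and 53.9, 52.6 and 50.1 CPM with LME-sEVs. Both groups were tight and well apart, and HCME-sEV libraries 1 and 2 were not the highest here. The log2 fold change was -0.34 (SE 0.091, FDR = 0.023), called under 11 of 17 settings. Its 3′ end overlaps Mif4gd on the opposite strand by 119 bases, and Mif4gd was higher with LME-sEVs, with a log2 fold change of 0.34 (SE 0.082, FDR = 0.013). The part of this overlap in the value of Mrps7 was not tested.

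Mrps5, whose bacterial homologue lines the path of the mRNA into the ribosome, was the most abundant Mrps gene. It was measured at 141, 138, 128 and 126 CPM with HCME-sEVs and at 116, 107 and 103 CPM with LME-sEVs. The groups did not overlap. Mrps5 fell by 0.30 on the log2 scale (SE 0.083, FDR = 0.027) and was called under 12 of 17 settings. Gm13328 holds a copy of its 3′ end that is identical over 298 bases and had a mean of 2.57 counts.

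Next by p came genes that did not pass the adjusted test. Mrps24, which lies where the mRNA enters, had 91.5, 84.1, 93.1 and 78.4 CPM with HCME-sEVs and 72.4, 79.5 and 66.3 CPM with LME-sEVs (log2 fold change -0.26, FDR = 0.11). The ranges overlapped by 1 library on each side. Mrps18a, 1 of 2 Mrps proteins that sit in the large subunit, had 32.4, 33.1, 32.4 and 34.8 CPM with HCME-sEVs and 29.5, 28.5 and 22.0 CPM with LME-sEVs (log2 fold change -0.33, FDR = 0.11). Its groups did not overlap, with LME-sEV library 3 the lowest. Mrps26, specific to mitochondria, had 62.4, 57.1, 49.98 and 57.5 CPM with HCME-sEVs and 51.5, 48.2 and 47.2 CPM with LME-sEVs (log2 fold change -0.22, FDR = 0.20). HCME-sEV library 3 lay within the LME-sEV range.

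The other abundant small-subunit genes differed less. Mrps6 had 127, 116, 108 and 127 CPM with HCME-sEVs and 121, 104 and 113 CPM with LME-sEVs (log2 fold change -0.09, FDR = 0.61). Mrps15 had 122, 132, 122 and 109 CPM with HCME-sEVs and 111, 109 and 104 CPM with LME-sEVs (log2 fold change -0.17, FDR = 0.24). The groups overlapped in both. Highest in log2 fold change were Mrps21, with 18.7, 17.2, 17.6 and 12.5 CPM against 23.9, 16.8 and 19.1 CPM (0.27, 95% interval -0.08 to 0.61), and Mrps11, with 18.3, 20.5, 18.3 and 16.0 CPM against 19.8, 23.5 and 17.8 CPM (0.16, 95% interval -0.15 to 0.46). Both are among the least abundant members, their groups overlapped, and neither was called. Mrps36, which despite its symbol belongs to the 2-oxoglutarate dehydrogenase complex and not to the ribosome, had the lowest log2 fold change at -0.63 from 8 to 26 counts per library (95% interval -1.28 to 0.02). Its near-identical copy Mrps36-ps2 had a mean of 4.86 counts. The 3′ ends of Mrpl22 and Mrps21 have such copies in Gm6997, with a mean of 1.71 counts, and Gm6181, with 0.14 counts.

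For each called member a two-sided exact permutation test of its log2 CPM was also run. These genes were chosen by their difference in the same 7 libraries, so a small permutation p adds no independent support. The exact permutation p was 0.0286, the smallest that 3 against 4 libraries can give, for Mrpl35, Mrpl38, Mrps7 and Mrps5. It was 0.0571 for Mrpl47, Mrpl12 and Mrpl18, and 0.0857 for Mrpl20.

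Genes of both origins had mostly negative values. For comparison, 5.21% of all tested genes were called lower, and 12.3% were lower at an unadjusted p under 0.05. Of 18 Mrps genes with a bacterial homologue, 13 were below 0 (median -0.14, 2 called lower), and of 30 such Mrpl genes 25 were (median -0.15, 5 called lower). Among genes specific to mitochondria, 9 of 10 Mrps genes were below 0 (median -0.20, 0 called, 3 at an unadjusted p under 0.05) and 15 of 18 Mrpl genes were (median -0.16, 1 called, Mrpl38). Grouped by the subunit that holds the protein, the 26 members in the small subunit had a median log2 fold change of -0.16 with 2 called, and the 50 in the large subunit -0.15 with 6 called. By level, of the 38 members above the median level of 74.3 CPM, 37 were below 0 and 5 were called, whereas of the 39 at or below it 26 were below 0 and 3 were called. As shares called lower, Mrps and Mrpl genes with a bacterial homologue had 11.1% and 16.7%, and those specific to mitochondria 0% and 5.56%. The small and large subunit had 7.69% and 12%. Members above the median level had 13.2%, and those at or below it 7.69%. Several of these shares were near the 5.21% of all tested genes. The difference between these groups of members was not tested. Counts here come from 3′ ends, with 1 tag per captured molecule, so CPM levels were not scaled by gene length. Overlapping genes and near-identical copies of a 3′ end can change the counts of a gene, so rankings of genes by level are approximate.

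The level of the members also differed between libraries of the same group. As the median over genes of log2 CPM minus each gene's own mean over the 7 libraries, the Mrpl genes stood at 0.19, 0.12, -0.02 and -0.01 in HCME-sEV libraries 1 to 4 and at -0.08, -0.07 and -0.14 in LME-sEV libraries 1 to 3. The Mrps genes stood at 0.15, 0.09, 0.05 and 0.03 and at -0.07, -0.05 and -0.13. HCME-sEV libraries 1 and 2 were the highest in both lists, and HCME-sEV libraries 3 and 4 were nearer to the LME-sEV libraries, most of all for Mrpl. Libraries 1 and 2 were also those with the largest share of counts from the mitochondrial genome, whose part in the result was not tested. Without HCME-sEV library 1 the median log2 fold change was -0.12 for Mrps and -0.12 for Mrpl, and 5 members were called lower, as were 4.37% of tested genes. Without HCME-sEV library 2 the medians were -0.16 and -0.16, and 4 members were called, with 3.33% of tested genes called lower. Without LME-sEV library 2, only Mrpl35 was called, and without LME-sEV library 3 only Mrpl35 and Mrpl47 were, when 1.76% and 2.1% of all tested genes were called lower.

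**Figure D4:**
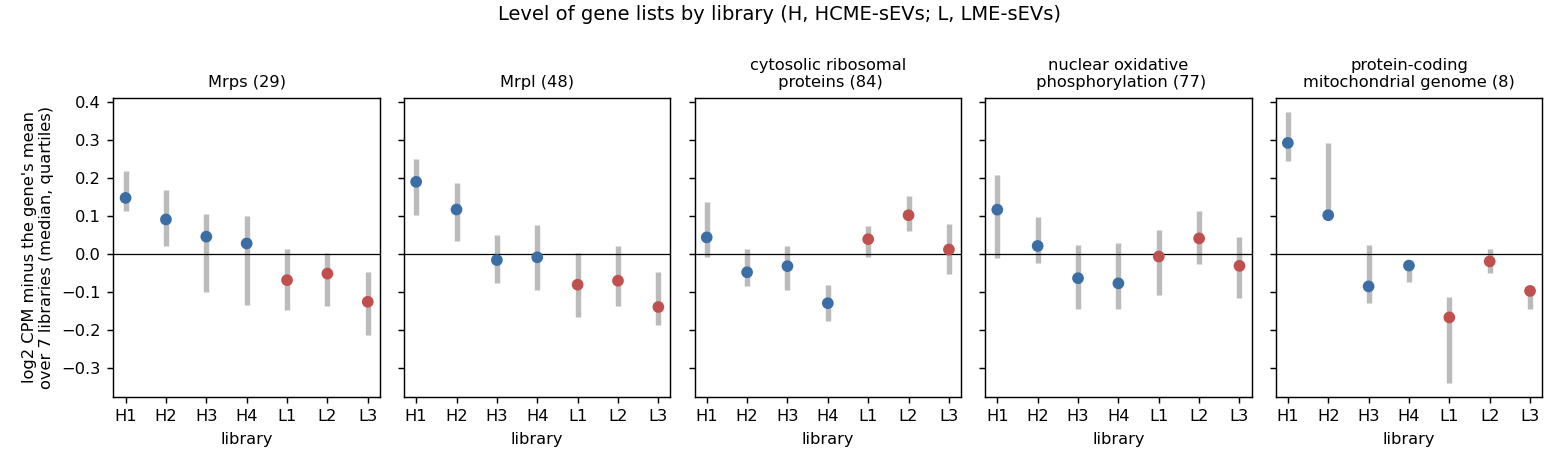
Level of 5 gene lists in each library, as log2 CPM minus the gene's mean over the 7 libraries (points, medians over the genes, and grey bars, quartiles), with HCME-sEVs in blue (H1 to H4) and LME-sEVs in red (L1 to L3). Mrps and Mrpl are highest in H1 (0.15 and 0.19) and lowest in L3 (-0.13 and -0.14), and the cytosolic ribosomal protein genes are highest in L2 (0.10) and lowest in H4 (-0.13).

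Ribosomal protein genes of the cytosol, which make the ribosome for all nuclear transcripts, had mostly positive values. Of 84 tested, 69 had a log2 fold change above 0, with a median of 0.10, and 0 were called lower while 5 were called higher (Rpl28 at 0.37, Rpl17 at 0.35, Rps15 at 0.27, Rpl29 at 0.27 and Rpl3 at 0.24). Nuclear genes of oxidative phosphorylation, whose proteins join the products of the mitochondrial ribosome, had a median of -0.01 over 77 genes, with 40 below 0. Of these, 0 were called lower and 2 were called higher, Cox7a2l at 0.41 and Ndufv3 at 0.30. Among all tested genes, 5.21% were called lower and 3.75% higher. The difference between these lists and the members was not tested, and the values stand side by side as counts.

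The transcripts that the mitochondrial ribosome translates come from the mitochondrial genome. Of its 13 protein-coding genes, 8 were tested, and the other 5 (mt-Co2, mt-Atp8, mt-Atp6, mt-Co3 and mt-Nd4l) were listed at 0 counts in every library. The median log2 fold change of the 8 was -0.15. In mt-Nd6, the only protein-coding gene on the light strand, levels were 75.6, 61.4, 48.9 and 57.3 CPM with HCME-sEVs and 32.2, 23.7 and 32.5 CPM with LME-sEVs, a log2 fold change of -1.05 (SE 0.14, FDR = 0.00016). Its neighbours lie on the other strand, and strand use in the counting is not known. The other 7 were not called.

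For the rest of the machinery of mitochondrial translation, calls are given beside the 5.21% of all tested genes called lower. At an unadjusted p under 0.05, 12.3% of all tested genes were lower and 10.4% higher. The 5 subunits with other symbols (Dap3, Ptcd3, Aurkaip1, Chchd1 and Gadd45gip1) had a median of -0.23. All were below 0, but Dap3 at -0.001 and Gadd45gip1 at -0.01 hardly differed between the groups. None was called, and 3 had an unadjusted p under 0.05, namely Aurkaip1 at -0.25, Chchd1 at -0.23 and Ptcd3 at -0.23. Chchd1 had 330, 286, 247 and 256 CPM with HCME-sEVs and 245, 241 and 230 CPM with LME-sEVs, with no overlap between the groups.

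Of the assembly factors, 26 were tested, 14 were below 0 (median -0.06) and 1 (3.85%) was called lower, a share near that of all tested genes. This was Mrm3, which methylates the rRNA of the large subunit, with 19.2, 23.2, 16.0 and 22.7 CPM with HCME-sEVs and 12.3, 11.4 and 9.86 CPM with LME-sEVs, a log2 fold change of -0.87 (SE 0.17, FDR = 0.0030). Its groups did not overlap, and its log2 fold change was below that of every called member. Of 16 mitochondrial tRNA synthetases, 8 were below 0 (median 0.01) and 1 (6.25%) was called lower, again near the share of all tested genes. This was Yars2, the tyrosyl-tRNA synthetase. Yars2 had 57.6, 57.1, 55.0 and 43.4 CPM with HCME-sEVs and 38.4, 40.5 and 41.0 CPM with LME-sEVs, a log2 fold change of -0.41 (SE 0.11, FDR = 0.025).

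Translation factors of mitochondria (16 tested) had a median of -0.10, and 0 were called, with 1 lower and 0 higher at an unadjusted p under 0.05. The 10 genes of mitochondrial transcription and DNA maintenance had a median of -0.15 and 0 calls, with 2 lower and 0 higher at an unadjusted p under 0.05. At that threshold 12.3% of all tested genes were lower and 10.4% higher. Tfam, which packages mitochondrial DNA and starts its transcription, had 164, 159, 159 and 144 CPM with HCME-sEVs and 144, 125 and 131 CPM with LME-sEVs (log2 fold change -0.23, FDR = 0.086).

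The promoter letters shown above were also counted in the called members. Of the 8 called members, 7 had a window, with the ETS letters in 1 (Mrpl18), the YY1 letters in 1 (Mrpl35) and the E-box in 1 (Mrpl20). Mrps18a, Mrps26 and Mrpl22, whose stretches hold the ETS letters close to the start, were not called.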

How the data were processed

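RNA was sequenced from the 3′ ends of transcripts (QuantSeq) in 7 libraries of CD8+ T cells, 4 with HCME-sEVs and 3 with LME-sEVs, grouped by their labels. The authors deposited counts per gene symbol, as whole numbers without normalization. Per the labels' processing notes they used cutadapt 2.10, STAR 2.5.3a, UMI-tools 1.0.0 and featureCounts of Subread 2.0.0 with GRCm38 (mm10). The annotation release and strand setting are not given in the sources used here. Reads with the same molecular identifier were collapsed, so PCR copies weigh little.

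Genes whose mean reached 5 counts were normalized by TMM. The test was the quasi-likelihood F-test of edgeR 4.0.16 (functions glmQLFit and glmQLFTest) in R 4.3.3 without a covariate, with Benjamini-Hochberg adjustment over 12623 genes. The exact permutation test was two-sided on log2 CPM with a prior count of 2. Intervals are 95%, and the limit of 3 counts covers counting error only. Overlaps and near-identical copies were searched in the last 300 bases of transcripts with blast 2.17.0, at 95% identity over at least 200 bases. The test was checked on simulated data of 12623 genes, with 200 genes changed at each of 2 fold sizes, and made 8 false calls. Python 3.11.15, pandas 2.3.3 and matplotlib 3.10.9 were used.

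Members and lists were chosen with earlier results of these data known. Genes were named by a rule. All members with an FDR under 0.05 were named, and per subunit the 5 with the smallest p, the 3 most abundant and the 2 with the highest log2 fold change were given by library, as were members next to the minimum. In other lists, called genes were named, at most 5 a list. Tfam, Chchd1, the subunits with other symbols, the mitochondrial genes at 0 and Mrps36 were named beside the rule. The 17 alternatives were DESeq2 size factors, upper-quartile factors, library size alone, TMM on abundant genes, no filter, filterByExpr, 5 counts in every library, DESeq2 1.42.0, limma-voom (limma 3.58.1), the replicate number as a block, and leaving out each of the 7 libraries. No 2 libraries of a group agreed within sampling noise (chi-square per degree of freedom of 2.10 to 6.00).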

Additional observations from a re-analysis of the deposited data

Results flagged for a closer look

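Mrpl38 was flagged because 1 library stood apart within its group. HCME-sEV library 1 measured 52.4 CPM and the other 3 HCME-sEV libraries 41.7 to 43.4 CPM, so that its gap to the nearest was 0.840 of the range of the group, above Dixon's critical value for 4 libraries. It was 1 of 19 results tested in this way, and chance alone flags about 0.95 of 19. The 3 LME-sEV libraries were too few for this test.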

How the results depend on the processing

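In all 17 alternatives the median log2 fold change stayed below 0 in both lists, and 0 members were called higher. All 8 called members stayed below 0. Leaving out 1 library at a time, the median ran from -0.18 to -0.12 for Mrps and from -0.20 to -0.12 for Mrpl. The members called lower ran from 0 to 2 for Mrps (2 with all libraries) and from 1 to 8 for Mrpl (6 with all libraries). In the same fits the share of all tested genes called lower ran from 1.76% (without LME-sEV library 2) to 6.03% (without HCME-sEV library 3). With library size alone 0 Mrps genes were called, and with no filter or with DESeq2's test 1. DESeq2's test called 4.19% of tested genes lower. With library size alone the medians were -0.12 and -0.10, and 3.68% of tested genes were called lower and 4.85% higher, against 5.21% and 3.75% with TMM. With no filter, 2.44% of 26474 genes were called lower. With the replicate number as a block, 4 Mrps genes and 9 Mrpl genes were called lower, among them all 8 called without it. In that fit 6.81% of tested genes were called lower. Deviations of libraries with the same number had correlations of 0.07, 0.15 and 0.03, and those with different numbers -0.21 to 0.08. These weak correlations do not settle whether the numbers are pairs. The main fit did not use them as pairs. The calls of Mrps7, Mrps5, Mrpl20 and Mrpl38 were lost in 5 or more settings, with adjusted p-values up to 0.12, 0.15, 0.20 and 0.17. The cause of these changes was not tested. Depth and 3 against 4 libraries limit what can be shown for single members with small differences.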

Other observations

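Mrps28, a small-subunit gene chosen here after its values were seen, varied more between replicates than any other of the 77 members. It had 10.8, 31.8, 38.8 and 20.2 CPM in HCME-sEV libraries 1 to 4 and 16.6, 33.4 and 32.1 CPM in LME-sEV libraries 1 to 3. Its within-group SD of log2 CPM was 0.711, against 0.376 for the next member (Mrps36) and a median of 0.126 over the members. Its log2 fold change was 0.14 (95% interval -0.42 to 0.71), and it was not called.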
